A study of Mus musculus with 3 samples.

Results

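Interferon response genes were followed in cultured mouse dermal fibroblasts of 3 genotypes. They were chosen by name, from 44 genes known as interferon-stimulated effectors, interferon-inducible GTPases, or regulators and receptors of the pathway. Of these, 31 were measured by a probe set annotated to exactly 1 gene symbol, among 7842 genes named in this way. The other 13 (Oas1a, Oas2, Oas3, Oasl1, Oasl2, Bst2, Rtp4, Ifi44, Ifi203, Ifitm2, Tgtp1, Irf2 and Stat2) were not analysed here. The rule uses no measured value, and it was set with earlier results of these data known.

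FGFR3Act fibroblasts came from Fgfr3G374Rneo- mice, which carry the G374R allele without the neo cassette and whose receptor signals without ligand. FGFR3KO fibroblasts came from FGFR3G374Rneo+ mice, in which the cassette is still beside that allele and no functional receptor is made. FGFR3WT fibroblasts came from wild-type Bl6 mice. All were kept untreated in fibroblast growth medium, and neither age nor, for the 2 mutants, strain background is given in the labels. By its title, the study was about profibrotic effects of Fgfr3.

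Interferons are secreted proteins by which cells announce infection. Type I interferons bind the receptor Ifnar1/Ifnar2 and activate a complex that contains Irf9 and binds the interferon-stimulated response element (ISRE). Interferon gamma binds Ifngr1/Ifngr2, and its signal reaches genes through the gamma-activated site (GAS). Fibroblasts carry both receptors and respond to both.

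Each genotype has 1 array column of MAS5 signals, so replicate error is unknown and every difference is one between arrays. The series states 3 samples a group, and the labels do not tell if the column stands for a single culture, pooled cultures or an average. A floor, below which signals were treated as noise, lay at the 40th percentile of each array: 123 on FGFR3Act, 122 on FGFR3KO and 121 on FGFR3WT. Genes under the floor on both arrays of a pair were left out of that pair, and a fold against an array at its floor is a bound, written "at least". Fgfr3 itself was below the floor throughout (2.42 on FGFR3Act, 3.76 on FGFR3KO and 1.06 on FGFR3WT), so it could not check the labels. Over all 7842 named genes, 4932 exceeded the floor of the FGFR3Act array. The FGFR3KO array had 4967 such genes and the FGFR3WT array had 4947. The fibroblast markers were present, 16 of 17 above the floor on every array. Of those 16, 12 were lower on FGFR3Act than on FGFR3WT (median log2 difference -0.31), as were 2923 of 5244 genes (median -0.07). On FGFR3Act against FGFR3KO 13 were lower (median -0.60), as were 2820 of 5297 genes (median -0.05). On FGFR3KO against FGFR3WT 10 were higher (median 0.20), as were 2516 of 5184 genes (median -0.02). The part of these markers in the results was not tested. Those furthest apart were the collagen Col3a1 (4166 on FGFR3Act, 10066 on FGFR3KO, 8069 on FGFR3WT) and the receptor Pdgfrb (240 on FGFR3Act, 495 on FGFR3KO and 563 on FGFR3WT). Macrophage and leukocyte markers were present on FGFR3Act, with 17 of 20 above the floor, against 3 of 20 on FGFR3KO and 2 of 20 on FGFR3WT. Of the dendritic and lymphocyte markers, 4 of 12 were above the floor on FGFR3Act, against 3 of 12 on each of the others, and Itgax stood at least 2.39-fold above FGFR3WT on FGFR3Act. Of the endothelial markers, 0 of 6 were above the floor on any array. Of the keratinocyte markers, 1 of 4 was above it on FGFR3KO and 0 of 4 on each of the others. That marker was Krt1, with 91.2 on FGFR3Act, 158 on FGFR3KO and 91.7 on FGFR3WT. In bulk RNA, fewer cells of a type and less RNA per cell cannot be told apart.

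Promoter windows of 9 members are shown because the main contrasts rest on 8 of them. Ifit2 and Ifit3 were higher on FGFR3Act, Rsad2, Ifi202b and Irf8 were above the floor on FGFR3Act alone, and Ifit1, Ifit3, Gbp3 and Ifi47 were lower on FGFR3KO. Isg15 is shown as a member that was not 2-fold apart. Each window runs from 250 bases before to 50 bases after the RefSeq start site, on the gene's strand of GRCm38.p6. Capitals mark matches to the ISRE core (TTTC, any 2 bases, then TTTC), searched on both strands, and, in Ifit2, Ifi202b and Irf8, to the GAS core TTCNNNGAA, which reads the same on both strands. Matches may overlap.
Ifit2 (chr19:34550444-34550743, + strand): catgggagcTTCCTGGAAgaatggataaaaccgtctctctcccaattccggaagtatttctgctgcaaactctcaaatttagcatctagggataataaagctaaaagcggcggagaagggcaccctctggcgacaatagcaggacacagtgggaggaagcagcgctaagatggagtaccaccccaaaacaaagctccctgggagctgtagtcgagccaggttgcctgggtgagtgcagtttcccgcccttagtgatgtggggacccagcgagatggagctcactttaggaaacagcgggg
Ifi202b (chr1:173982795-173983094, - strand): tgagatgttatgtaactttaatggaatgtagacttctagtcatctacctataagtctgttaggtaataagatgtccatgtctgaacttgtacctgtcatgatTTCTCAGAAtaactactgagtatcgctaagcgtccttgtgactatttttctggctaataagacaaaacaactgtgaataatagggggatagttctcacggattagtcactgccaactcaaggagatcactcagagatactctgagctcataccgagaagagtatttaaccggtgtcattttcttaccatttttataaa
Ifi47 (chr11:49076337-49076636, + strand): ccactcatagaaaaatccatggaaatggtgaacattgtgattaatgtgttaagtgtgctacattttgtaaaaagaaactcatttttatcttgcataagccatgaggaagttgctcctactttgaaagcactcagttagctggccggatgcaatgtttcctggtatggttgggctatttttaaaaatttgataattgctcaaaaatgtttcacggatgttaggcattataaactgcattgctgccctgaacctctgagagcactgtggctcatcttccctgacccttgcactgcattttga
Ifit1 (chr19:34640639-34640938, + strand): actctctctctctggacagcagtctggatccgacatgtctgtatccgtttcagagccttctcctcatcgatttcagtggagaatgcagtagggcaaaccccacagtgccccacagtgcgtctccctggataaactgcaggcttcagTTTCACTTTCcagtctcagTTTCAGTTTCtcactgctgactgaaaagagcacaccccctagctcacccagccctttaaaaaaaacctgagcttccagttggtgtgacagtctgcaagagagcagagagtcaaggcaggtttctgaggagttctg
Ifit3 (chr19:34583279-34583578, + strand): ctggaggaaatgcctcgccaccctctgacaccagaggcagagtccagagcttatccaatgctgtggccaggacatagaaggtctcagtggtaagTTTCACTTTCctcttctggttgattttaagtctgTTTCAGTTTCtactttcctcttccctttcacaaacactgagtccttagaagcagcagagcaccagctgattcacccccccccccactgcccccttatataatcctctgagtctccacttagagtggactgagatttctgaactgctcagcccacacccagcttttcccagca
Gbp3 (chr3:142559794-142560093, + strand): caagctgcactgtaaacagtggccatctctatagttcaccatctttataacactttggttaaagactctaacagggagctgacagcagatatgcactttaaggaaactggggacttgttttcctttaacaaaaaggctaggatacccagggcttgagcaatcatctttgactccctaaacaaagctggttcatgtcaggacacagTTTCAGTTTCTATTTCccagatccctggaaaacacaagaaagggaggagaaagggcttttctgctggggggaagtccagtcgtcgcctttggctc
Rsad2 (chr12:26456403-26456702, - strand): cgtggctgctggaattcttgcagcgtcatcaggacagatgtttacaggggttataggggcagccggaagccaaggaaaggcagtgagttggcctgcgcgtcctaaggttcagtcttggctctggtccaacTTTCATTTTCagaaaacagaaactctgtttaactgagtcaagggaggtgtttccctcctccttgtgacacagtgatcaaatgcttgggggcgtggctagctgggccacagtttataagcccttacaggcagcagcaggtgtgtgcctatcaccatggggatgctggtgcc
Isg15 (chr4:156200769-156201068, - strand): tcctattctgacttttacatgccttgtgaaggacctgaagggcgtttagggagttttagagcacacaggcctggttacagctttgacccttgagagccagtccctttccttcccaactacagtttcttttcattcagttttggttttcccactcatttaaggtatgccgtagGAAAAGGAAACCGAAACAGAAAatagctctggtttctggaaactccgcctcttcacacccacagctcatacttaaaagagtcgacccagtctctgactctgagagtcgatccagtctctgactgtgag
Irf8 (chr8:120736108-120736407, + strand): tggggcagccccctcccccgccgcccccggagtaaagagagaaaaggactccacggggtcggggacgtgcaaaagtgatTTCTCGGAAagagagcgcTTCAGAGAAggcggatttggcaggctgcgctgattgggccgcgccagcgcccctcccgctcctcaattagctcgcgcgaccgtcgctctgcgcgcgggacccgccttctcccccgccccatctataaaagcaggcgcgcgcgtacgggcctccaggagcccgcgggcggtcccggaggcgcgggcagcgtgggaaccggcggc
The ISRE matches began 104 and 85 bases before the start site in Ifit1, 156 and 122 in Ifit3, 45 and 39 in Gbp3, and 120 in Rsad2. Isg15 held 3 overlapping matches on the opposite strand, from 78 to 66 bases before the start. Irf8 held 2 GAS matches, the first 171 bases before the start. Ifit2 and Ifi202b held 1 GAS match each, 241 and 148 bases before the start, and no ISRE core. Ifi47 held neither. Ifit2, Gbp3 and Irf8 each have a second RefSeq window, not shown here, and none of these held either core.

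Of the 44 genes, 36 had a RefSeq promoter entry (Oas2, Mx1, Mx2, Usp18, Rtp4, Ifi27, Ifi204 and Iigp1 had none). The ISRE core was found in 18 of the 36 (50%), against 1079 of 27025 genes (3.99%). It was found in 11 of 19 effectors, 5 of 6 GTPases and 2 of 11 regulators and receptors. The GAS core was found in 14 of 36 (38.9%), against 2582 of 27025 genes (9.55%). Over windows rather than genes, 3.44% of 32851 held the ISRE core and 8.30% the GAS core. These are matches of letters, not measured binding.

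**Figure D1:**
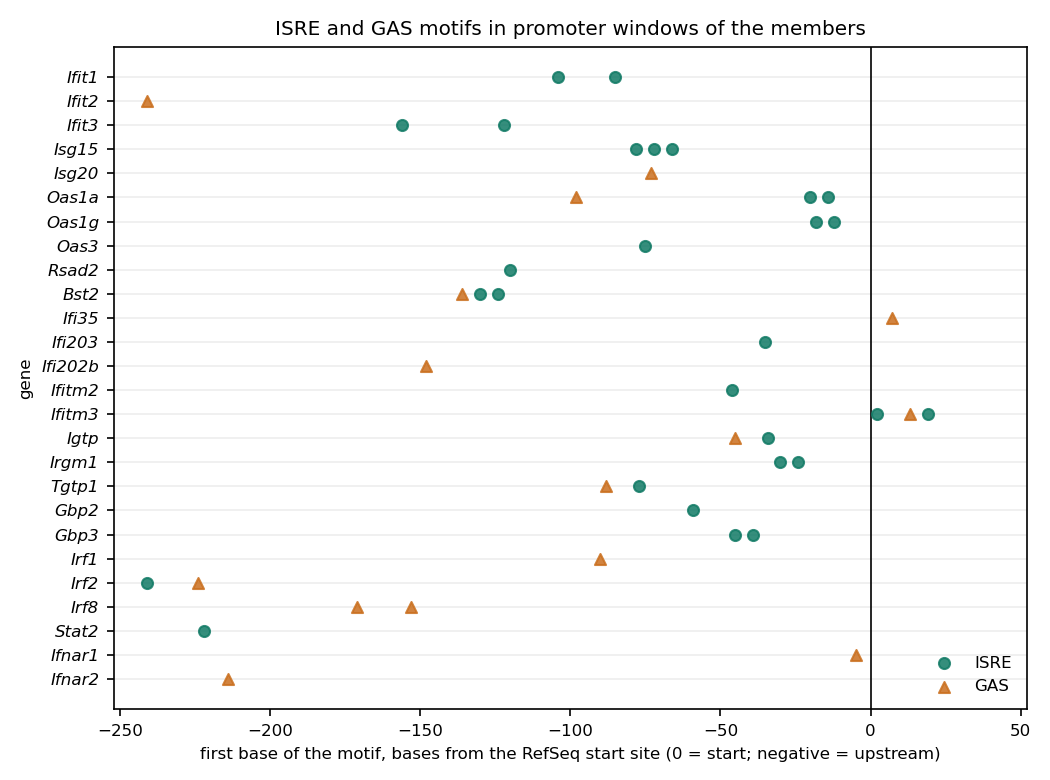
Positions of ISRE cores (circles) and GAS cores (triangles) in the promoter windows of the members that hold at least 1 of them, in bases from the RefSeq start site; rows are genes. Most matches lie upstream of the start, and those of Ifitm3 and Ifi35 lie downstream of it.

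The members did not move as 1 block. On FGFR3Act, 6 of 28 comparable members (21.4%) were at least 2-fold higher than on FGFR3WT, where 4.14% of all genes were, and 0 were at least 2-fold lower, where 4.79% of all genes were. Counting both directions, 8.92% of all genes were at least 2-fold apart. The 6 were Ifit2, Ifit3, Rsad2, Ifi204, Ifi202b and Irf8. Of these, Rsad2, Ifi202b and Irf8 entered through their FGFR3Act signal alone. In all, 17 of 28 members were lower on FGFR3Act, as were 2923 of 5244 genes, and the median log2 difference was -0.11, against -0.07 over all genes. Markers of macrophages were higher on the same array, and their part in these differences was not tested.

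On FGFR3KO, 5 of 25 comparable members (20%) were at least 2-fold lower than on FGFR3WT, where 3.61% of all genes were, and 0 were at least 2-fold higher, where 1.93% of all genes were. Counting both directions, 5.54% of all genes were at least 2-fold apart. The 5 were Ifit1, Ifit3, Ifi47, Iigp1 and Gbp3. Ifi47 was below the floor on FGFR3KO and entered the pair through its FGFR3WT signal alone. The median over the 25 was -0.06, against -0.02 over all genes. Requiring both arrays above the floor left 4 of 23 members at least 2-fold lower and 0 higher, against 5.07% of all genes in either direction. The median was then -0.04, against -0.02 over all genes. Between FGFR3Act and FGFR3KO, 7 of 28 members (25%) were at least 2-fold higher on FGFR3Act, where 8.33% of all genes were, and 1 was lower, Ifitm3, where 7.49% were. In either direction this was 15.8% of all genes. The 7 were Ifit2, Ifit3, Rsad2, Ifi202b, Ifi47, Gbp3 and Irf8, and the median log2 difference over the 28 was 0.24, against -0.05 over all genes. Of these 7, Ifit2, Rsad2, Ifi202b, Ifi47 and Irf8 were below the floor on FGFR3KO and entered the pair through their FGFR3Act signal alone. With both arrays required above the floor, 2 of 23 members stood 2-fold or more above FGFR3KO on FGFR3Act and 1 below it, against 14.1% of all genes in either direction, and the median was -0.058, against -0.06 over all genes. The 2 comparisons with FGFR3WT share that array, and the comparison of FGFR3Act with FGFR3KO shares an array with each of them.

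**Figure D2:**
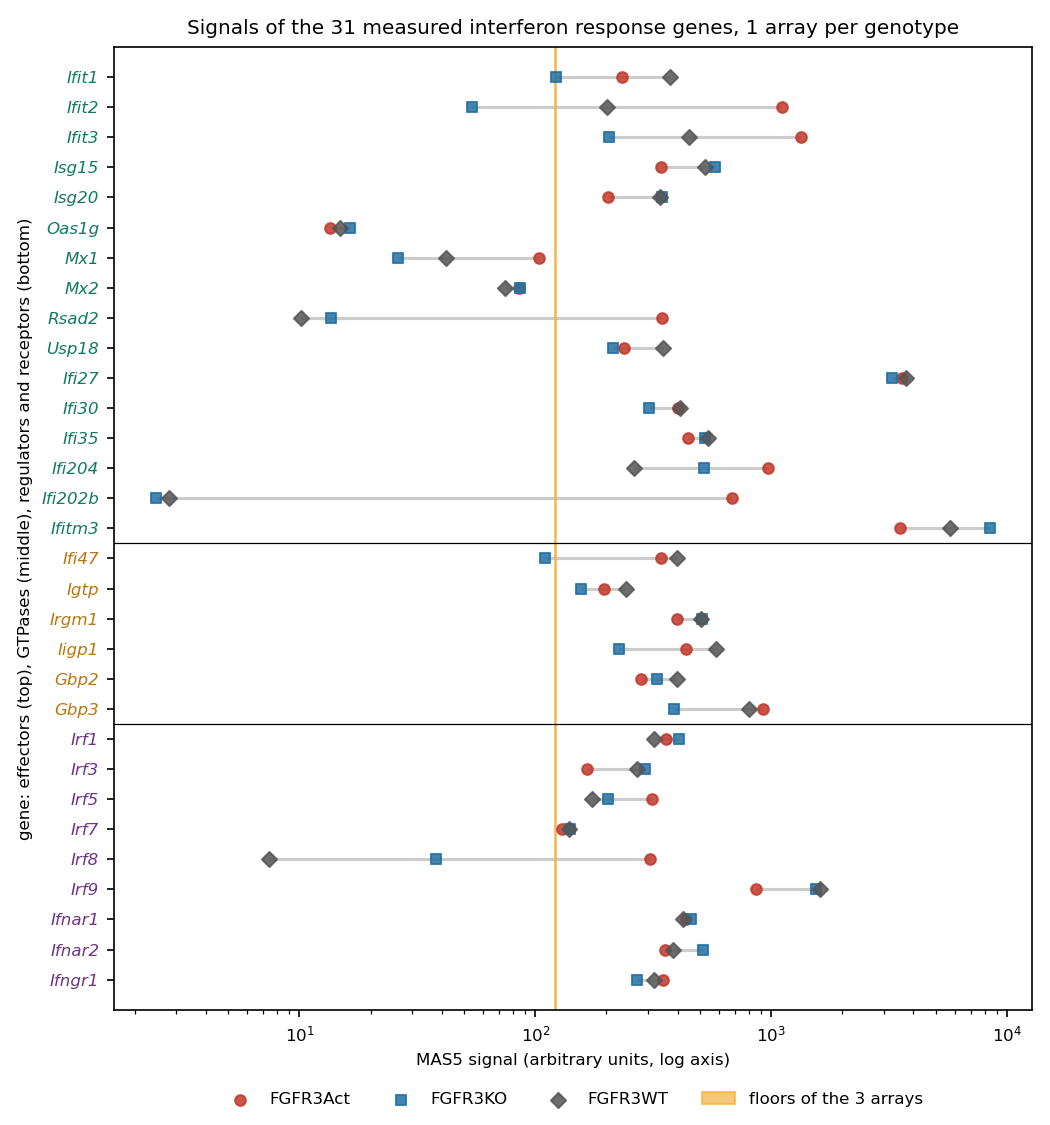
MAS5 signals of the 31 measured members on a log axis, 1 point per array (FGFR3Act circles, FGFR3KO squares, FGFR3WT diamonds), with the floors of the arrays as a band. Ifit2, Ifit3, Rsad2, Ifi202b and Irf8 show the FGFR3Act point far to the right, while for Isg15, Irf3 and Irf9 it lies to the left.

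Among the effectors, the Ifit genes encode proteins that bind foreign RNA and block its translation. Ifit2 had 1107 on FGFR3Act, 54.0 on FGFR3KO and 201 on FGFR3WT, the FGFR3KO value being below the floor. It stood 5.51-fold above FGFR3WT on FGFR3Act, lower by at least 1.65-fold on FGFR3KO than on FGFR3WT, and higher by at least 9.08-fold on FGFR3Act than on FGFR3KO. Ifit2 was thus highest on the FGFR3Act array and lowest on the FGFR3KO array.

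Ifit3 followed the same order, at 1334 on FGFR3Act, 206 on FGFR3KO and 446 on FGFR3WT. It was 2.99-fold higher on FGFR3Act and 2.17-fold lower on FGFR3KO, each against FGFR3WT, and 6.48-fold apart between the mutants. Mice have a close copy, Ifit3b, whose transcripts the probe set may also bind. Ifit1 differed from its neighbours, with 232 on FGFR3Act, 122 on FGFR3KO and 372 on FGFR3WT. It was highest on FGFR3WT, with a log2 difference of -0.68 on FGFR3Act, and 3.04-fold lower on FGFR3KO, where its signal was just above the floor. In the RefSeq annotation Ifit2 and Ifit3 are direct neighbours on chromosome 19, and 3 protein-coding genes separate Ifit3 from Ifit1. All 3 were lower on FGFR3KO than on FGFR3WT, and on FGFR3Act Ifit1 parted from the other 2.

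Rsad2 encodes viperin, an enzyme that makes a chain-terminating nucleotide and so stops viral RNA synthesis. Its signal was 343 on FGFR3Act, 13.7 on FGFR3KO and 10.2 on FGFR3WT. It was above the floor on FGFR3Act alone, at least 2.84-fold above FGFR3WT and at least 2.82-fold above FGFR3KO.

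The ubiquitin-like modifier Isg15 and its protease Usp18, which also damps the type I receptor, behaved differently from Rsad2. Isg15 had 340 on FGFR3Act, 575 on FGFR3KO and 522 on FGFR3WT. It was 1.54-fold lower on FGFR3Act than on FGFR3WT. Usp18 had 236 on FGFR3Act, 213 on FGFR3KO and 346 on FGFR3WT, 1.47-fold and 1.62-fold lower in the 2 mutants. The exonuclease Isg20 had 203 on FGFR3Act, 344 on FGFR3KO and 336 on FGFR3WT. Isg15 and Isg20 were thus lowest on the array with the highest Ifit2, Ifit3 and Rsad2, by less than 2-fold.

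The Ifi200 family on chromosome 1 encodes nuclear proteins, several of which bind DNA. Ifi202b had 680 on FGFR3Act, 2.46 on FGFR3KO and 2.80 on FGFR3WT, which is at least 5.63-fold above FGFR3WT and at least 5.58-fold above FGFR3KO. In mice its expression is known to differ between inbred strains, being very low in C57BL/6. Since the labels name Bl6 for FGFR3WT and no strain for the mutants, genotype and strain background cannot be told apart for this gene. The same holds for every other member in the comparisons with FGFR3WT. It also holds between the 2 mutants, since the labels name a strain for neither. Ifi204 had 963 on FGFR3Act, 518 on FGFR3KO and 261 on FGFR3WT, 3.69-fold and 1.99-fold higher in the 2 mutants. Its probe set is of the _f_ kind, which binds several members of a gene family. The second probe set of Ifi204 was below the floor, with 55.0 on FGFR3Act, 72.9 on FGFR3KO and 42.5 on FGFR3WT, which is not the same order. With both probe sets averaged, the log2 difference of Ifi204 between FGFR3Act and FGFR3WT was 0.93, under 2-fold.

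Ifitm3, a membrane protein that stops viruses from fusing in endosomes, moved against Ifit2 and Ifit3. It had 3519 on FGFR3Act, 8461 on FGFR3KO and 5735 on FGFR3WT. It was 2.40-fold lower on FGFR3Act than on FGFR3KO. Against FGFR3WT it was 1.63-fold lower on FGFR3Act and 1.48-fold higher on FGFR3KO. Ifitm3 was the only member lower by 2-fold or more on FGFR3Act in its comparison with FGFR3KO, and none was in the comparison with FGFR3WT.

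Ifi27, Ifi30 and Ifi35 were within 1.35-fold of FGFR3WT on both mutants. Ifi27, an inducible membrane protein, had 3559 on FGFR3Act, 3258 on FGFR3KO and 3722 on FGFR3WT. Ifi30, a lysosomal thiol reductase of antigen processing, had 401 on FGFR3Act, 304 on FGFR3KO and 410 on FGFR3WT. Ifi35 had 444 on FGFR3Act, 521 on FGFR3KO and 537 on FGFR3WT. Ifi30 is best known from antigen-presenting cells, and its signal on FGFR3Act, where macrophage markers were present, was 1.02-fold below FGFR3WT. Mx1, Mx2 and Oas1g, classic antiviral effectors, were below the floor on all 3 arrays, between 13.4 and 103. No difference is given for them.

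The GTPases, which attack the vacuoles of intracellular pathogens and are strongly induced by interferon gamma, were lower on FGFR3KO than on FGFR3WT in 5 of 6 members. Over all genes, 2668 of 5184 were lower. Of the 6 GTPases, 3 were at least 2-fold lower, where 3.61% of all genes were. The median log2 difference of the GTPases was -0.85, against -0.02 over all genes. Ifi47 had 341 on FGFR3Act, 110 on FGFR3KO and 396 on FGFR3WT, lower by at least 3.25-fold on FGFR3KO than on FGFR3WT. Its FGFR3KO signal was below the floor, so it entered this pair through FGFR3WT alone. Iigp1 had 433 on FGFR3Act, 227 on FGFR3KO and 582 on FGFR3WT, 2.57-fold lower on FGFR3KO. Gbp3, a guanylate-binding protein, had 917 on FGFR3Act, 385 on FGFR3KO and 807 on FGFR3WT, 2.10-fold lower on FGFR3KO. For these 3 genes FGFR3KO stood apart, while FGFR3Act and FGFR3WT lay within 1.34-fold of each other.

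Igtp had 196 on FGFR3Act, 155 on FGFR3KO and 242 on FGFR3WT, likewise lowest on FGFR3KO, by less than 2-fold. Irgm1, which regulates the other immunity-related GTPases, had 396 on FGFR3Act, 508 on FGFR3KO and 501 on FGFR3WT. Gbp2 had 280 on FGFR3Act, 328 on FGFR3KO and 398 on FGFR3WT. Irgm1 and Gbp2 were thus lowest on FGFR3Act and did not share the low FGFR3KO value of Ifi47, Iigp1 and Gbp3. On FGFR3Act against FGFR3WT the GTPases had a median log2 difference of -0.32, with 5 of 6 lower, as were 2923 of 5244 genes. Of the 6, 0 were at least 2-fold apart, where 8.92% of all genes were. A second Iigp1 probe set was below the floor, at 80.9 on FGFR3Act, 67.3 on FGFR3KO and 114 on FGFR3WT, also lowest on FGFR3KO. Of the 20 macrophage and leukocyte markers, Cd14, Cd52 and Cx3cr1 were above the floor on FGFR3KO, and Cd14 and Cx3cr1 on FGFR3WT. The others, among them Lyz2, Csf1r, Adgre1 and Cd68, were below it on both arrays. The part of these markers in the GTPase differences was not tested.

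**Figure D3:**
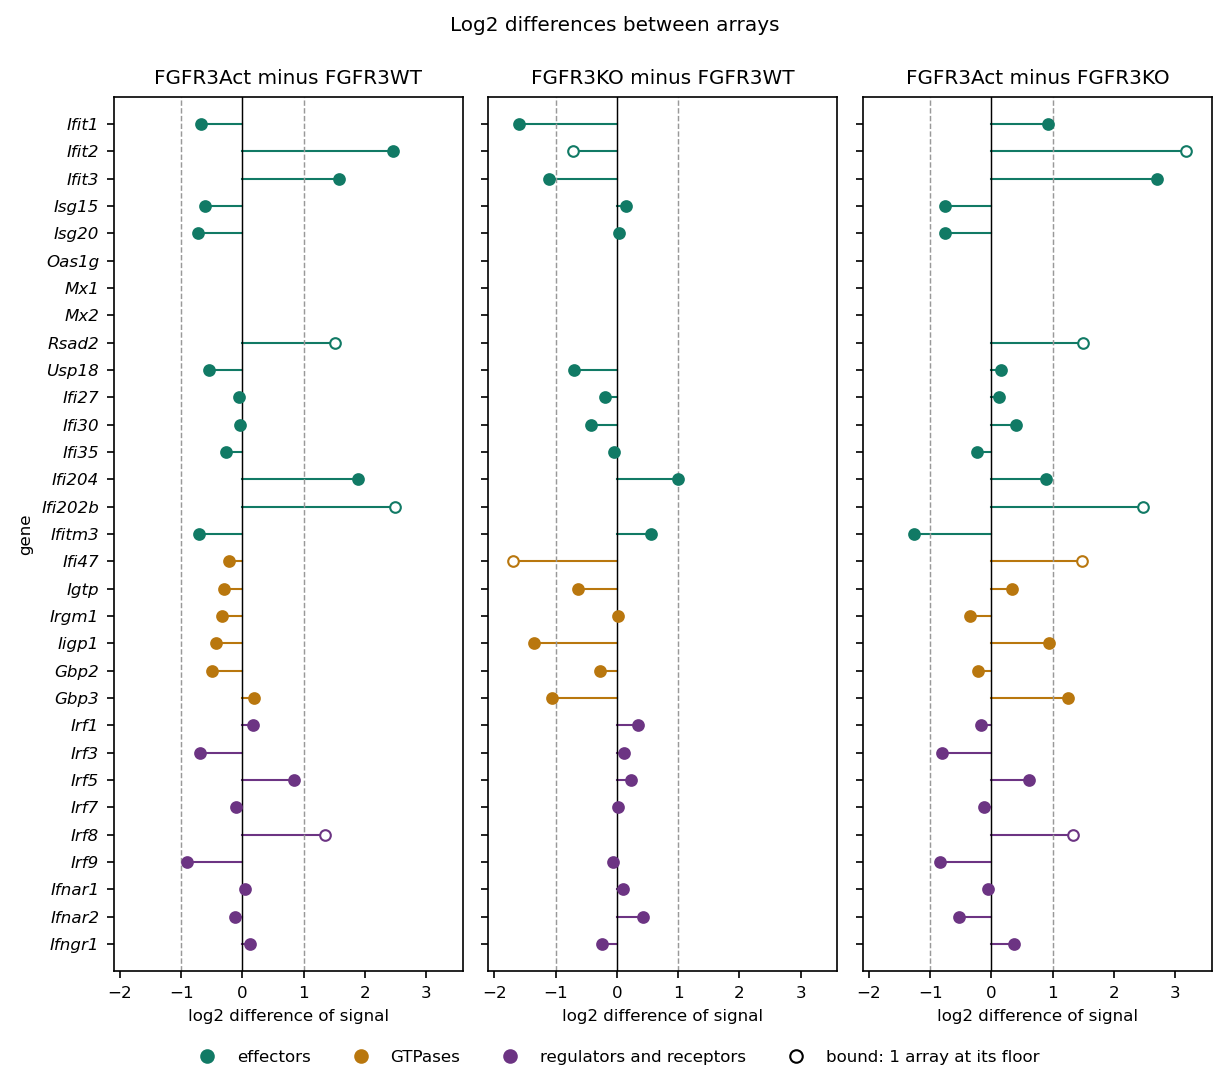
Log2 difference of signal for each member in each pair of arrays, positive where the array named first is higher; open points are bounds, dashed lines mark 2-fold, and an empty row means that the gene was below the floor on both arrays. Ifit1, Ifit3, Ifi47, Iigp1 and Gbp3 reach past 2-fold to the left in the FGFR3KO minus FGFR3WT panel. Irf9 and Irf3 stay within 2-fold in every panel.

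Of the regulators and receptors, 1 of 9 was at least 2-fold apart on FGFR3Act against FGFR3WT, where 8.92% of all genes were, and 0 of 8 on FGFR3KO against FGFR3WT, where 5.54% were. Irf9, the DNA-binding subunit of the type I complex, had 858 on FGFR3Act, 1538 on FGFR3KO and 1601 on FGFR3WT, 1.87-fold lower on FGFR3Act than on FGFR3WT. Irf3, which switches on interferon genes after virus sensing, had 165 on FGFR3Act, 291 on FGFR3KO and 269 on FGFR3WT, 1.62-fold lower on FGFR3Act. Both were lowest on FGFR3Act and lay within 1.08-fold of wild type on FGFR3KO.

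Irf7, the amplifier of the type I response, had 129 on FGFR3Act, 140 on FGFR3KO and 139 on FGFR3WT, just above the floor. Irf1, an activator shared by both interferon types, had 359 on FGFR3Act, 405 on FGFR3KO and 317 on FGFR3WT. For both genes the arrays lay within 1.28-fold of each other.

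Irf8, a factor of myeloid cells, was the 1 regulator at least 2-fold apart. It had 306 on FGFR3Act, 37.7 on FGFR3KO and 7.44 on FGFR3WT, above the floor on FGFR3Act alone and at least 2.53-fold above FGFR3WT. Irf5, known from macrophages, had 311 on FGFR3Act, 203 on FGFR3KO and 174 on FGFR3WT, 1.79-fold above FGFR3WT. The 20 macrophage and leukocyte markers had signals that summed to 35121 on FGFR3Act, 1789 on FGFR3KO and 1496 on FGFR3WT. None of the 20 was at 0 on any array. A signal below the floor, treated as noise here, does not show whether such RNA was present. The markers furthest apart were the protease Ctss, at least 94.6-fold above FGFR3WT on FGFR3Act, and the lysozyme Lyz2, at least 58.3-fold above it. Without Irf5, Irf8, Ifi30 and Ifi204, which are known chiefly from myeloid cells, 4 of 24 members were higher by at least 2-fold on FGFR3Act than on FGFR3WT. Of all genes, 4.14% were. The 4 were Ifit2, Ifit3, Rsad2 and Ifi202b, and Rsad2 and Ifi202b entered through their FGFR3Act signal alone. Leaving out genes does not separate fibroblast from macrophage RNA, and the part of each was not tested.

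The receptor chains among the members were under 2-fold apart in every pair. Ifnar1 had 437 on FGFR3Act, 455 on FGFR3KO and 423 on FGFR3WT. Ifnar2 had 354 on FGFR3Act, 512 on FGFR3KO and 383 on FGFR3WT by its brighter probe set. The other gave 211 on FGFR3Act, 465 on FGFR3KO and 361 on FGFR3WT. Both probe sets placed Ifnar2 highest on FGFR3KO and lowest on FGFR3Act. Ifngr1 had 348 on FGFR3Act, 269 on FGFR3KO and 319 on FGFR3WT. Its partner chain Ifngr2, which is not among the 44, had 434 on FGFR3Act, 248 on FGFR3KO and 195 on FGFR3WT, 2.22-fold higher on FGFR3Act than on FGFR3WT.

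Other genes of the pathway were taken from lists made by function. Over all genes, 8.92% were at least 2-fold apart on FGFR3Act against FGFR3WT, 5.54% on FGFR3KO against FGFR3WT and 15.8% between the mutants. Of 9 comparable JAK-STAT partners and inhibitors, Ifngr2 was higher by at least 2-fold on FGFR3Act than on FGFR3WT and 0 were lower, and 0 of 9 were 2-fold apart on FGFR3KO. Of 5 nucleic acid sensing genes, 0 were 2-fold apart from FGFR3WT on either mutant. Trim25, a ubiquitin ligase that activates the RNA sensor RIG-I, had 1064 on FGFR3Act, 490 on FGFR3KO and 703 on FGFR3WT, 2.17-fold apart between the mutants. The median log2 difference of the sensing list was -0.09 on FGFR3Act and -0.32 on FGFR3KO, each against FGFR3WT.

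Among further interferon-stimulated genes, 1 of 12 was higher by at least 2-fold on FGFR3Act than on FGFR3WT, where 4.14% of all genes were. Of the 12, 0 were at least 2-fold lower, where 4.79% of all genes were, and the median was 0.24. The 1 higher gene was Slfn2, a growth regulator of immune cells, with 1885 on FGFR3Act, 287 on FGFR3KO and 20.6 on FGFR3WT. It was higher than on FGFR3WT by at least 15.6-fold on FGFR3Act and by at least 2.37-fold on FGFR3KO. On FGFR3KO, 2 of 10 were at least 2-fold higher than on FGFR3WT, where 1.93% of all genes were. These were Slfn2 and the nucleotide hydrolase Samhd1 (533 on FGFR3Act, 834 on FGFR3KO and 414 on FGFR3WT, 2.01-fold above FGFR3WT). Between the mutants, Slfn2 was 6.57-fold and Plscr1 2.03-fold higher on FGFR3Act than on FGFR3KO, and Lgals3bp was 2.24-fold lower. Plscr1 had 487 on FGFR3Act, 240 on FGFR3KO and 292 on FGFR3WT. Lgals3bp had 597 on FGFR3Act, 1337 on FGFR3KO and 802 on FGFR3WT. Of the 10, 4 were lower on FGFR3KO than on FGFR3WT, the furthest being the immunity-related GTPase Irgm2, with 817 on FGFR3Act, 420 on FGFR3KO and 835 on FGFR3WT, 1.99-fold lower. The median of the 10 was 0.25.

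The interferons themselves gave little signal. Of 8 interferon genes, only Ifna5 and Ifnab were above the floor on any array, and Ifnb1 and Ifng were below it on all 3. Ifna5 had 234 on FGFR3Act, 240 on FGFR3KO and 227 on FGFR3WT. Ifnab had 171 on FGFR3Act, 163 on FGFR3KO and 92.5 on FGFR3WT. In antigen presentation, 0 of 10 comparable genes on FGFR3Act and 0 of 9 on FGFR3KO were 2-fold apart from FGFR3WT. Over all genes this was 8.92% on FGFR3Act and 5.54% on FGFR3KO. The class I heavy chains H2-K1 and H2-D1 were 2.26-fold and 2.30-fold higher on FGFR3Act than on FGFR3KO. H2-K1 had 6156 on FGFR3Act, 2729 on FGFR3KO and 3861 on FGFR3WT. H2-D1 had 4590 on FGFR3Act, 1995 on FGFR3KO and 2885 on FGFR3WT.

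**Figure D4:**
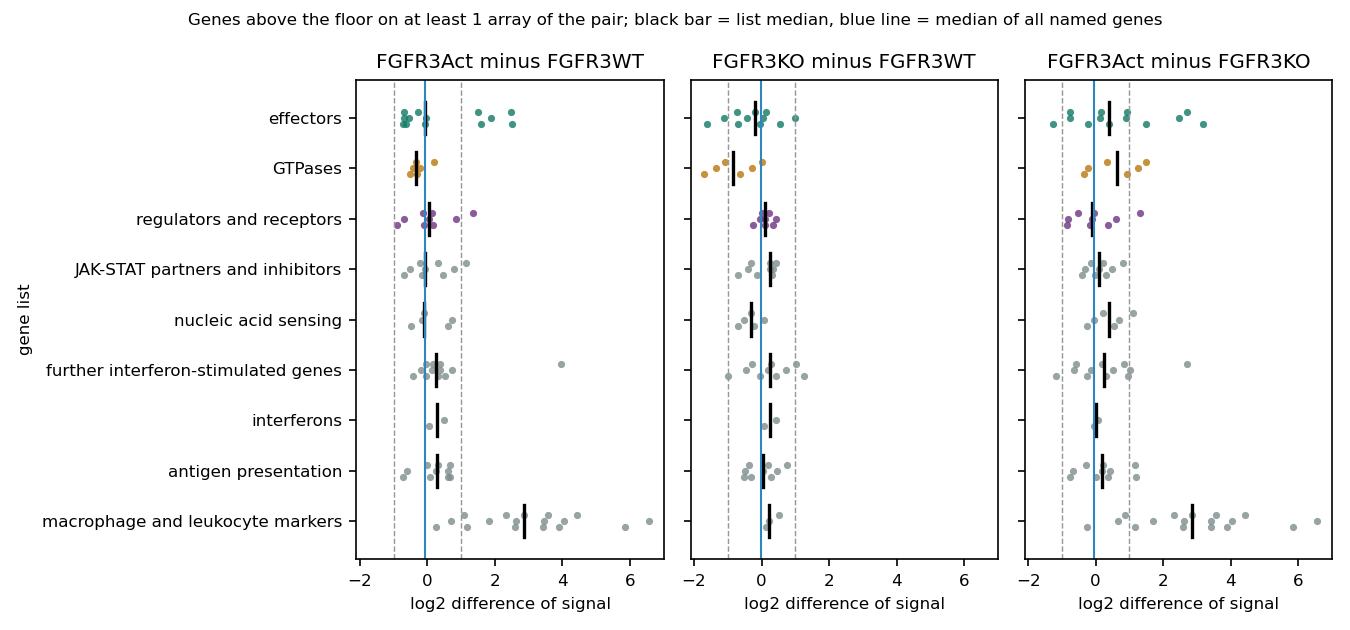
Log2 differences of signal for the member groups (coloured) and other lists (grey) in each pair of arrays, 1 point per gene, with the list median as a black bar and the median of all named genes as a blue line. On FGFR3KO minus FGFR3WT 5 of 6 GTPases lie left of the blue line (median -0.85), and the macrophage and leukocyte markers lie far right of it as a group where FGFR3Act is named first (medians 2.87 and 2.86).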

How the data were processed

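The deposited table holds a linear signal intensity for every probe set on each of the 3 arrays. MAS5 made these values, per the submitters' processing notes. Its settings are not given here. Of 9889 probe sets, 18 were controls, 9039 had 1 symbol and 323 several, and only single-symbol ones were named, with 9027 symbols updated through the RefSeq table of GRCm38.p6. Where a gene had several such probe sets, the one brightest on average (log2) was used. Lower signals were set to the floor before taking log2, without rescaling, which understates differences of dim genes. With 1 array per genotype no test was run and no p-value is given, and the number of arrays limits the precision. At least 2-fold describes size. Every measured member is accounted for, and of other pathway lists the genes at least 2-fold apart in a pair are named, and of marker lists those furthest apart. Ifna5, Ifnab, Ifnb1, Ifng, Irgm2, Csf1r, Adgre1, Cd68, Cd14, Cd52 and Cx3cr1 were named outside this rule. The members and lists were chosen with earlier results of these data known. Alternatives were quantile normalisation, centring on medians, a floor at the 20th or the 60th percentile, an offset of 16, other filters, other choices of probe sets, and leaving out Irf5, Irf8, Ifi30 and Ifi204. Leaving out Ifi204 alone was added after seeing the data. Python 3.11.15, numpy 2.4.6 and pandas 2.3.3 were used, and the arithmetic was tested on simulated data.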

Additional observations from a re-analysis of the deposited data

How the results depend on the processing

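Of the repeats of the member counts and medians, 53 kept the direction and stayed within 0.1 for a median or 1.5 times for a count, 9 moved further and 4 changed direction. The floor at the 60th percentile left 3 of 21 members at least 2-fold apart on FGFR3Act against FGFR3WT, where 7.08% of all genes were. It left 1 of 17 on FGFR3KO against FGFR3WT, where 3.95% of all genes were. On FGFR3Act against FGFR3KO it left 4 of 19, where 13.6% of all genes were, with a median of -0.038. At that floor Rsad2 had a log2 difference of -0.07 on FGFR3Act against FGFR3WT, the difference between the floors. Requiring a signal over the floor on both arrays removes every bound. It left 3 of 25 (Ifit2, Ifit3 and Ifi204) on FGFR3Act against FGFR3WT, where 7.40% of all genes were 2-fold apart, with a median of -0.22. It left 3 of 23 on FGFR3Act against FGFR3KO, where 14.1% of all genes were, with a median of -0.058. The median on FGFR3KO against FGFR3WT was 0.019 after quantile normalisation and 0.014 with no filter, so its direction was not stable, and that on FGFR3Act against FGFR3KO was 0.13 with no filter. Without Irf5, Irf8, Ifi30 and Ifi204 the medians were -0.24 on FGFR3Act against FGFR3WT and 0.035 on FGFR3Act against FGFR3KO. After quantile normalisation or median centring, 1 of 25 members (Ifi204) was higher by at least 2-fold on FGFR3KO than on FGFR3WT and 5 were lower. In either direction, 5.07% and 5.19% of all genes were 2-fold apart under these 2 settings. Ifit2 and Ifit3 stayed higher by at least 2-fold on FGFR3Act than on FGFR3WT in all 10 settings, and Gbp3 at least 2-fold lower on FGFR3KO in all 10. The cause of the other changes was not tested. No paired analysis was possible because each genotype has 1 array.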

Other observations

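Cmpk2, Tyk2 and Il10rb were picked out after their values were seen. Cmpk2, a mitochondrial nucleotide kinase, lies next to Rsad2 on chromosome 12 with no protein-coding gene between them. Its signal was 173 on FGFR3Act, 15.4 on FGFR3KO and 14.3 on FGFR3WT. Like Rsad2 it was above the floor on FGFR3Act alone, by at least 1.43-fold over FGFR3WT. Tyk2, the kinase bound to Ifnar1, had 43.1 on FGFR3Act, 96.7 on FGFR3KO and 198 on FGFR3WT, below the floor on both mutants. Il10rb, a receptor chain shared with the interferon lambda receptor, had 2557 on FGFR3Act, 1830 on FGFR3KO and 1488 on FGFR3WT.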
